A study of Homo sapiens with 6 samples.

Results

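Intraflagellar transport (IFT) genes encode subunits of the protein trains that carry cargo along the microtubules of the cilium, and 10 of them, out of 17452 genes in the files, are described here. The members were taken from a list of symbols and are IFT27, IFT22, IFT46, IFT52, IFT74, IFT81, IFT88, IFT20, IFT57 and IFT140. The list is not all genes with an IFT symbol: IFT43, IFT80, IFT122 and IFT172 are in the files, are not members and are given further below. The members were chosen with the measured siPHF20L1 minus siControl difference in view, because IFT27 was among the genes with the largest differences. Their differences between the groups are therefore given as a description, with no p-value, and the number of members past the threshold of the fit across all genes appears only beside the share of all genes past it.

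Gene expression was measured by sequencing poly-A RNA of MDA-MB-231 cells, an established human line from a triple-negative breast tumour. The siPHF20L1 group holds 3 libraries of cells transfected with siRNA against PHF20L1, a nuclear reader of methylated lysines, and the siControl group holds 3 libraries of cells labelled as control. Both groups come from the same line and no other line or untransfected sample was analysed here, so every value describes a single tumour cell line. The labels' protocols name a pair of Lipofectamine reagents without saying which was used for which library, and no source used here gives the sequence of the siRNA or the hours to harvest. No label states whether the 3 libraries within a group were separate cultures, so p-values measure the spread between these libraries only, and that spread may be technical.

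IFT trains are built at the base of the cilium from complexes named IFT-A and IFT-B. Kinesin-2 motors pull the trains to the tip with IFT-B in the leading role, dynein-2 motors pull them back with IFT-A, and the BBSome rides on them as an adaptor for membrane proteins. IFT-B has a core and a peripheral part. Many cells in culture build a single primary cilium when they leave the cell cycle, and several IFT proteins also work at the Golgi, at spindle poles or in vesicle traffic. No cilium was observed in these data, which hold transcript levels.

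In both groups the targeted gene followed the labels: PHF20L1 (Entrez 51105) had 2.67, 2.31 and 2.74 FPKM (sequenced fragments divided by transcript length and by library size) in siPHF20L1 libraries, against 15.75, 12.48 and 12.73 FPKM in siControl libraries. The depth estimated from the steps of low FPKM was 17100000 to 17500000 fragments per library. The libraries numbered 1 stood apart from those numbered 2 and 3 in both groups, and their deviations from the group means correlated across genes at 0.73. Differences within the number 1 and within the numbers 2 and 3 are therefore also given for the members with the largest differences. Of the features of a triple-negative mesenchymal line, ESR1 was listed at 0 in all 6 libraries, PGR at 0.05 FPKM or less, and VIM was between 1009.95 and 1024.41 FPKM in siPHF20L1 libraries and between 1612.83 and 1644.01 FPKM in siControl libraries. Listed among the features that the line lacks or has low, ERBB2 was at 29.6 to 31.52 FPKM in siPHF20L1 and 25.81 to 25.96 FPKM in siControl libraries, and the epithelial gene EPCAM at 3.54 to 5.13 FPKM in siPHF20L1 and 2.02 to 2.33 FPKM in siControl libraries. Of 14 markers of motile multiciliated cells, which carry IFT trains in number, 11 were in the files. Their summed level was 10.81 to 13.25 FPKM in siPHF20L1 libraries and 13.58 to 14.63 FPKM in siControl libraries. FOXJ1, DNAI1 and PIFO were each listed at 0 in 5 of 6 libraries, and RSPH1 in 2. DNAH5, RSPH4A, TPPP3, CAPS and CCDC39 were above 0 in all 6 libraries, at 1.58 FPKM or less. The largest part of that sum came from CCNO, at 5.52 to 7.19 FPKM in siPHF20L1 libraries and 8.33 to 9.0 FPKM in siControl libraries. MCIDAS, on the same list, ran the other way, at 3.31 to 3.79 FPKM in siPHF20L1 libraries and 2.68 to 2.88 FPKM in siControl libraries. The part of these markers in the results on the members was not tested.

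The regions upstream of the start sites of the 3 members with the largest differences, IFT27, IFT52 and IFT46, are shown first. Whether these genes share a regulator was not tested. RefSeq promoter windows (GRCh38.p14, 250 bases before to 50 bases after each start site) were found for 9 of the 10 members; none was used for IFT22. The 200 bases before the start site are printed 5′ to 3′ on the strand of the gene for IFT27 (chr22:36776120-36776319, minus strand), IFT52 (chr20:43590737-43590936, plus strand) and IFT46 (chr11:118565932-118566131, minus strand). Capitals mark GTTGCC, or its reverse complement, the half-site of the X-box that RFX factors, regulators of cilium genes, bind.
IFT27: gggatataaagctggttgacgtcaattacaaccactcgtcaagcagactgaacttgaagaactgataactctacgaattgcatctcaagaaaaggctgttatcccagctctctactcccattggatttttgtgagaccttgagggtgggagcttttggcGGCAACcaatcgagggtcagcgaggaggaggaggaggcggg
IFT52: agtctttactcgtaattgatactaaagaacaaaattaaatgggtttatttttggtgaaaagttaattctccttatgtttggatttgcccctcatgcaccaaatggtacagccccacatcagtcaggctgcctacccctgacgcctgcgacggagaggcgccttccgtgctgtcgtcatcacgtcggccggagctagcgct
IFT46: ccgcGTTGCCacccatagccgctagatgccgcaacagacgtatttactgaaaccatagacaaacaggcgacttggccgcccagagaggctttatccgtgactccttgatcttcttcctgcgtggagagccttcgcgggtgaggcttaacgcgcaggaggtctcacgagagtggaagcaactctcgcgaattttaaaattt
The IFT27 stretch holds the half-site on the strand opposite to the gene, with its first base 41 bases before the start site. In IFT46 the half-site lies farther out, 196 bases before the start site, and the IFT52 window of 300 bases holds none. GC content was 49.5% in the IFT27 stretch with 7 CpG dinucleotides, 48.5% in IFT52 with 11, and 53.5% in IFT46 with 16.

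The half-site was also found in the windows of IFT74, IFT81 and IFT88, so that 5 of the 9 members with a window hold it on either strand. Over all 35116 RefSeq windows the share was 12.2%, and over the 9543 tested genes with a window it was 17.0%. The 30 bases around it are shown for the start site of IFT74 nearest to a match (chr9:26956372-26956401), for IFT81 (chr12:110124345-110124374) and for IFT88 (chr13:20567161-20567190), all on the plus strand.
IFT74: tatcccgcccccGTTGCCgggatacgccgc
IFT81: ggcctagcaaccGTTGCCaaggagctcgac
IFT88: gattccgcgcttGGCAACggctcggcgtcg
IFT74 has 3 annotated windows, and a second match lies 237 bases before another of its start sites. The match begins 28 bases before the start site in IFT74, at the start base itself in IFT81 and at base 17 of the transcript in IFT88. Members with and without the half-site occur among those with large differences (IFT27 with, IFT52 without) and small differences (IFT88 with, IFT20 without). A match is a string of letters in these windows and not a site shown to be bound, and no binding was measured here.

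All 10 members passed the filter on low values (at least 1 FPKM in at least 3 libraries), each with at least 1 FPKM in every library. Each had a higher mean in siPHF20L1 than in siControl libraries, and in 8 of the 10 every siPHF20L1 library lay above every siControl library, an order found in 36.7% of the 11560 genes tested. In the fit across all genes (limma), 6 of the 10 passed the threshold, a Benjamini-Hochberg adjusted p under 0.05, in the direction of higher siPHF20L1 levels, and 9 of the 10 with a replicate block in the fit. Without the block, the same call was made for 34.0% of all genes tested, and calls of lower levels for 24.7%. With the block, 4946 of the 11560 genes tested were called higher and 3846 lower. These are the numbers to set beside every count given below with the block. Since the members were chosen from this contrast, nothing is read from these shares. The median log2 difference of the members, on the log2(FPKM + 1) scale, was 0.28, and that of all genes tested was 0.05. In bulk RNA, a difference in the number of cells that express a gene and a difference in RNA per cell cannot be told apart.

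**Figure D1:**
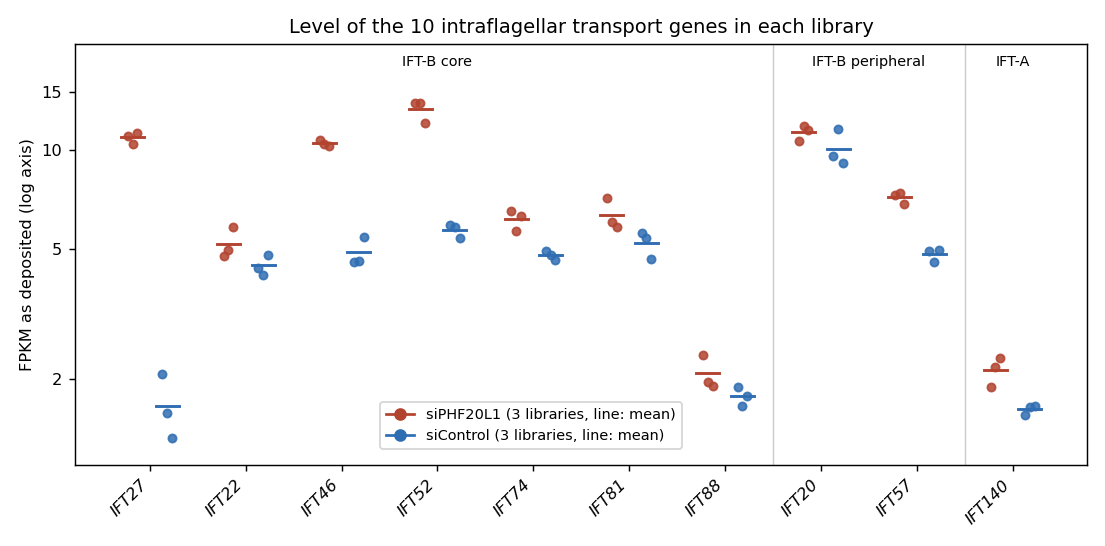
FPKM of the 10 members (log axis) in the 3 siPHF20L1 libraries (red, left of each pair) and the 3 siControl libraries (blue, right), with a line at each group's mean and the members ordered by complex. IFT27 lies at 10.43 to 11.28 FPKM in siPHF20L1 libraries and at 1.33 to 2.08 FPKM in siControl libraries, while IFT20 and IFT22 are the members whose groups overlap.

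Among the subunits of the IFT-B core, IFT27 (Entrez 11020, chromosome 22) had the largest difference of all members. It encodes a small GTPase related to Rab proteins which binds HSPB11, also called IFT25, and in mice it is needed for the exit of the BBSome and of Hedgehog receptors from the cilium rather than for building the cilium. IFT27 had 11.03, 10.43 and 11.28 FPKM in siPHF20L1 libraries, against 2.08, 1.58 and 1.33 FPKM in siControl libraries. The groups lay far apart, with the lowest siPHF20L1 library several times above the highest siControl library. The means were 10.9 ± 0.437 FPKM in siPHF20L1 and 1.66 ± 0.382 FPKM in siControl libraries (SD, n = 3 each), 6.56-fold higher. On the log2(FPKM + 1) scale, which understates the change of a gene as low as this in siControl libraries, the difference was 2.17 (SE 0.10), rank 11 from the top of the 11560 genes tested. Within the number 1 it was 1.97, and within the numbers 2 and 3 it was 2.27. From transcript length and depth, these values correspond to about 200 to 219 fragments in siPHF20L1 and 25 to 40 fragments in siControl libraries. No other gene in GENCODE release 29 overlaps IFT27.

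IFT52 (Entrez 51098, chromosome 20), a scaffold of the core that connects IFT88 to IFT46, had 13.89, 13.92 and 12.03 FPKM in siPHF20L1 libraries, against 5.89, 5.82 and 5.38 FPKM in siControl libraries. The groups did not overlap, and siPHF20L1 3 was the lowest of its group. The means were 13.3 ± 1.08 FPKM in siPHF20L1 and 5.70 ± 0.277 FPKM in siControl libraries (SD, n = 3 each), 2.33-fold higher, with a log2 difference of 1.09 (SE 0.08). Within the number 1 this difference was 1.11, and within the numbers 2 and 3 it was 1.08.

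IFT46 (Entrez 56912, chromosome 11) binds IFT52, and in the alga Chlamydomonas it also serves the transport of outer dynein arms. Its values were 10.69, 10.39 and 10.28 FPKM in siPHF20L1 libraries, against 4.57, 4.6 and 5.44 FPKM in siControl libraries. The siPHF20L1 libraries lay close together and well above all siControl libraries, of which siControl 3 was the highest. The means were 10.45 ± 0.212 FPKM in siPHF20L1 and 4.87 ± 0.494 FPKM in siControl libraries (SD, n = 3 each), 2.15-fold higher, with a log2 difference of 0.97 (SE 0.08). The difference was 1.07 within the number 1 and 0.92 within the numbers 2 and 3. Of the 10 members, IFT27 and IFT52 had a log2 difference of at least 1, a size reached upward by 3.35% of all genes tested.

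The other members of the core differed less. IFT74 (Entrez 80173, chromosome 9) and IFT81 (Entrez 28981, chromosome 12) form the coiled-coil pair that binds tubulin, the main cargo of a growing cilium. IFT74 had 6.53, 5.66 and 6.29 FPKM in siPHF20L1 libraries, against 4.93, 4.79 and 4.62 FPKM in siControl libraries, and IFT81 had 7.12, 6.04 and 5.84 FPKM in siPHF20L1 libraries, against 5.59, 5.38 and 4.66 FPKM in siControl libraries. For both genes the siPHF20L1 libraries lay above the siControl libraries, by a narrow margin in IFT81. The log2 difference was 0.31 (SE 0.08) for IFT74 and 0.24 (SE 0.09) for IFT81.

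IFT88 (Entrez 8100, chromosome 13), a tetratricopeptide-repeat protein whose loss in mice leaves cells without cilia, had 2.38, 1.97 and 1.91 FPKM in siPHF20L1 libraries, against 1.90, 1.66 and 1.78 FPKM in siControl libraries. The groups were apart by 0.01 FPKM, the difference between siPHF20L1 3 and siControl 1. IFT22 (Entrez 64792, chromosome 7), a GTPase-like subunit that binds IFT74 and IFT81, had 4.75, 4.95 and 5.83 FPKM in siPHF20L1 libraries, against 4.38, 4.17 and 4.79 FPKM in siControl libraries. Here the groups overlapped, since siPHF20L1 1 lay below siControl 3. The log2 differences were 0.15 (SE 0.09) for IFT88 and 0.18 (SE 0.09) for IFT22.

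In the peripheral part of IFT-B, IFT57 (Entrez 55081, chromosome 3), which also binds the huntingtin partner HIP1, had 7.27, 7.38 and 6.85 FPKM in siPHF20L1 libraries, against 4.91, 4.55 and 4.96 FPKM in siControl libraries. The groups did not overlap. The means were 7.17 ± 0.280 FPKM in siPHF20L1 and 4.81 ± 0.224 FPKM in siControl libraries (SD, n = 3 each), with a log2 difference of 0.49 (SE 0.07). IFT20 (Entrez 90410, chromosome 17), the subunit that also sits at the Golgi, had 10.67, 11.78 and 11.46 FPKM in siPHF20L1 libraries, against 9.58, 11.55 and 9.13 FPKM in siControl libraries. Its groups overlapped, siControl 2 lying above siPHF20L1 1 and 3, and its log2 difference was 0.16 (SE 0.09). IFT20 shares 361 of its 1519 annotated exon bases with TMEM97 on the opposite strand, which had 27.24, 25.38 and 26.25 FPKM in siPHF20L1 libraries, against 36.35, 35.3 and 34.93 FPKM in siControl libraries. Whether the authors' FPKM used strand was not given in the sources used here, so IFT20 values are uncertain. The same holds to a smaller extent for IFT74, which shares 260 of 2771 exon bases with PLAA, and for IFT140, which shares 31 of 5750 exon bases with TELO2 and 287 with the transcript AL031719.1. IFT46 lies across from ARCN1 and TMEM25 but shares 0 exon bases with them.

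IFT140 (Entrez 9742, chromosome 16) is the member from IFT-A and part of the core of that complex. It had 1.90, 2.18 and 2.32 FPKM in siPHF20L1 libraries, against 1.56, 1.65 and 1.66 FPKM in siControl libraries. The groups did not overlap, and the siControl libraries lay close together. The means were 2.13 ± 0.214 FPKM in siPHF20L1 and 1.62 ± 0.0551 FPKM in siControl libraries (SD, n = 3 each), with a log2 difference of 0.25 (SE 0.08).

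Since FPKM is per length, the levels of the members can be set side by side, within limits. IFT20 values are uncertain because of the exon bases shared with TMEM97. The length used for each gene was not given, and matched transcripts of IFT22 ran from 875 to 2272 bases. In siPHF20L1 libraries the order by mean FPKM was IFT52, IFT20, IFT27, IFT46, IFT57, IFT81, IFT74, IFT22, IFT140 and IFT88. In siControl libraries it was IFT20, IFT52, IFT81, IFT46, IFT57, IFT74, IFT22, IFT88, IFT27 and IFT140. In the siControl order, IFT20 stood above the range of IFT52, and the members from IFT52 to IFT22 followed each other with overlapping ranges between 4.17 and 5.89 FPKM. IFT88, IFT27 and IFT140 formed a lower step between 1.33 and 2.08 FPKM, also with overlapping ranges. IFT27 stood on the lowest step in siControl libraries and on the level of IFT20 and IFT46 in siPHF20L1 libraries.

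The 10 members summed to 76.23, 74.70 and 74.09 FPKM in siPHF20L1 libraries, against 45.39, 45.75 and 43.75 FPKM in siControl libraries. Without IFT27 the sums were 65.20, 64.27 and 62.81 FPKM in siPHF20L1 and 43.31, 44.17 and 42.42 FPKM in siControl libraries. The share of the sum held by IFT27 was 14.47%, 13.96% and 15.22% in siPHF20L1 libraries, against 4.58%, 3.45% and 3.04% in siControl libraries. The share of IFT20 was lower, with 14.00%, 15.77% and 15.47% in siPHF20L1 libraries, against 21.11%, 25.25% and 20.87% in siControl libraries. The shares of IFT22, IFT74, IFT81, IFT88, IFT57 and IFT140 were lower too, and those of IFT52 and IFT46 were higher. The groups did not overlap in any of these shares. Shares of a sum depend on each other, and no member with a lower share had a lower mean FPKM. Within the siControl group, siControl 1 had the highest share of IFT27 and siControl 2 the highest share of IFT20.

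Ratios of partner subunits within a library do not depend on its scaling. IFT27 over HSPB11, its partner in the GTPase heterodimer, was 0.256, 0.273 and 0.314 in siPHF20L1 libraries, against 0.0433, 0.0377 and 0.0363 in siControl libraries. HSPB11 itself had 43.02, 38.26 and 35.98 FPKM in siPHF20L1 libraries, against 48.06, 41.96 and 36.6 FPKM in siControl libraries, so the HSPB11 transcript was the more abundant of the pair in every library. IFT52 over IFT88 was 5.84, 7.07 and 6.3 in siPHF20L1 libraries, against 3.1, 3.51 and 3.02 in siControl libraries, without overlap.

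Other pairs kept overlapping ratios. IFT52 over IFT46 was 1.3, 1.34 and 1.17 in siPHF20L1 libraries, against 1.29, 1.27 and 0.989 in siControl libraries. IFT81 over IFT74 was 1.09, 1.07 and 0.928 in siPHF20L1 libraries, against 1.13, 1.12 and 1.01 in siControl libraries. The ratios of IFT22 over IFT74 and of IFT57 over its partner CLUAP1 overlapped as well. IFT140 over IFT122, another subunit of the IFT-A core, was 0.399, 0.481 and 0.458 in siPHF20L1 libraries, against 0.359, 0.345 and 0.359 in siControl libraries, and did not overlap.

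**Figure D2:**
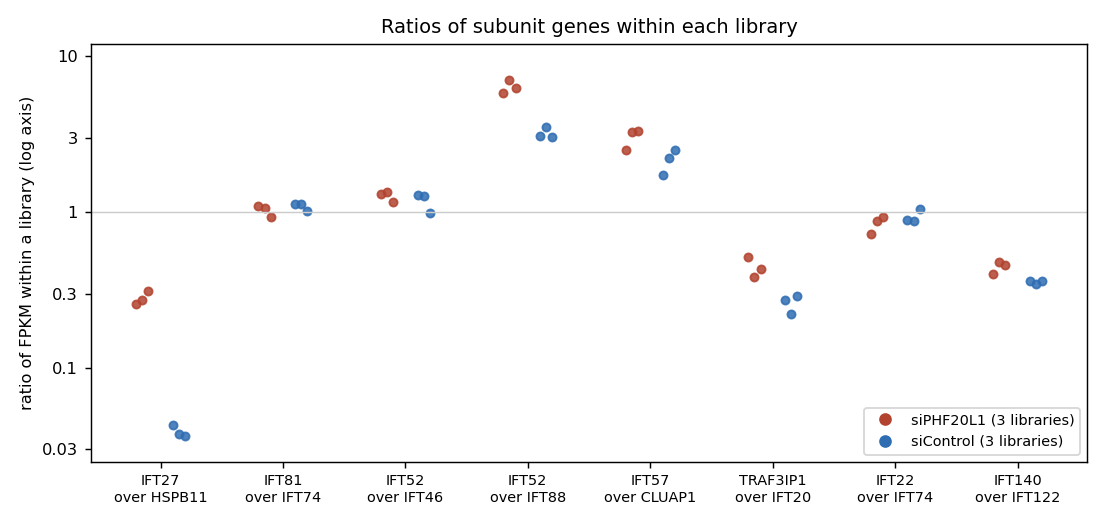
Ratio of FPKM of pairs of subunit genes within each library (log axis), for the 3 siPHF20L1 libraries (red, left) and the 3 siControl libraries (blue, right). IFT27 over HSPB11 lies at 0.256 to 0.314 in siPHF20L1 and at 0.0363 to 0.0433 in siControl libraries, while IFT81 over IFT74 overlaps between the groups.

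The genes most like IFT27 in profile were found by the root mean square distance between log2(FPKM + 1) profiles over the 6 libraries, each centred on its own mean. The nearest of all genes tested were the monocarboxylate transporter family gene SLC16A6 (0.110), the nucleolar gene NOLC1 (0.125), the lysine methyltransferase gene SETD7 (0.129), the NF-kB inhibitor gene NFKBIB (0.134) and the collagen gene COL4A1 (0.135). SLC16A6, the nearest, had 9.09, 7.98 and 8.88 FPKM in siPHF20L1 libraries, against 1.72, 1.39 and 1.27 FPKM in siControl libraries. Like IFT27, all 5 were higher in every siPHF20L1 library than in any siControl library. That order follows from the search for profiles near that of IFT27, so nothing is read from it. The nearest members were IFT52 at 0.555 and IFT46 at 0.628, and IFT20 was the farthest at 1.02. With 2 groups of 3 libraries, this distance reflects mainly the size of the difference between the groups.

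The subunits of the trains that are not members, 13 genes, were not taken by the rule and were tested in the fit across all genes. In limma's fit, 3 of the 12 tested rose, 3 fell and the other 6 missed the adjusted threshold of 0.05, against 34.0% higher and 24.7% lower over all genes tested. The 3 that fell include TTC30B, which passed the filter only through the group where it was higher. The median log2 difference of the 12 was 0.04, near the 0.05 of all genes. TRAF3IP1, the peripheral subunit also called IFT54 that pairs with IFT20, had 5.51, 4.54 and 4.94 FPKM in siPHF20L1 libraries, against 2.60, 2.56 and 2.63 FPKM in siControl libraries. Its groups were clearly apart, with a log2 difference of 0.73 (SE 0.08, limma adjusted p = 9.1e-05), and the ratio of TRAF3IP1 over IFT20 was 0.516, 0.385 and 0.431 in siPHF20L1 libraries, against 0.271, 0.222 and 0.288 in siControl libraries.

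In IFT-A the other subunits moved in both directions. IFT43, a small subunit of that complex, had 6.27, 8.23 and 8.12 FPKM in siPHF20L1 libraries, against 3.39, 4.91 and 4.96 FPKM in siControl libraries, and rose with a log2 difference of 0.66 (SE 0.14, limma adjusted p = 0.00365). WDR19, also called IFT144, rose by 0.46 (SE 0.09, adjusted p = 0.00266). TTC21B, also called IFT139, fell, with 4.13, 3.29 and 3.43 FPKM in siPHF20L1 libraries, against 6.44, 5.86 and 5.63 FPKM in siControl libraries (log2 difference -0.60, SE 0.09, limma adjusted p = 0.000584). WDR35, also called IFT121, fell by 0.27 on the log2 scale (adjusted p = 0.0343), a call that was lost under 7 of 15 alternative settings, among them leaving out siPHF20L1 2 or 3 or siControl 1 or 3. The difference for IFT122 was 0.05 (SE 0.07, adjusted p = 0.573).

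In the IFT-B core, TTC30B, one of the paralogs that encode IFT70, fell to 0.8, 0.9 and 0.67 FPKM in siPHF20L1 libraries, against 1.16, 1.73 and 1.43 FPKM in siControl libraries (log2 difference -0.44, SE 0.10, limma adjusted p = 0.00581). It reached the minimum of 1 FPKM only through the siControl libraries, the group where it was higher, so nothing is read from its call. A near-identical paralog, TTC30A, which was too low to be tested, makes the split of fragments between TTC30A and TTC30B uncertain. TTC30A was listed at 0.89, 0.95 and 0.94 FPKM in siPHF20L1 libraries and at 0.78, 0.48 and 0.58 FPKM in siControl libraries, above the siControl range where TTC30B was below it. TTC26, also called IFT56, had a log2 difference of -0.18 (SE 0.09, adjusted p = 0.135), and HSPB11 one of -0.10 (SE 0.10, adjusted p = 0.417). With a replicate block in the limma fit both passed the threshold (adjusted p = 0.0342 for TTC26 and 0.0263 for HSPB11). In that fit 3 of the 3 core genes tested fell, TTC30B among them, against 1, TTC30B itself, without the block. HSPB11 passed under no other setting and TTC26 under quantile normalization, and with the libraries numbered 2 and 3 alone or averaged 1 core gene fell.

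In the peripheral part, IFT80 had a log2 difference of 0.22 (SE 0.10, limma adjusted p = 0.0937), which passed with the replicate block (adjusted p = 0.00598) and also without siControl 1, so that 2 peripheral genes rose in those fits, against 1. CLUAP1, also called IFT38, differed by 0.06 (SE 0.13, adjusted p = 0.726), and IFT172, which in Chlamydomonas acts where trains turn round at the tip, by 0.02 (SE 0.07, adjusted p = 0.8). The 4 genes with an IFT symbol that are not members, IFT43, IFT80, IFT122 and IFT172, thus had log2 differences between 0.02 and 0.66. Those of IFT122 and IFT172 were below 0 under quantile normalization, at -0.04 and -0.07. The differences between the siPHF20L1 and siControl libraries therefore ran from -0.60 for TTC21B to 2.17 for IFT27 over the 22 train subunits tested.

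**Figure D3:**
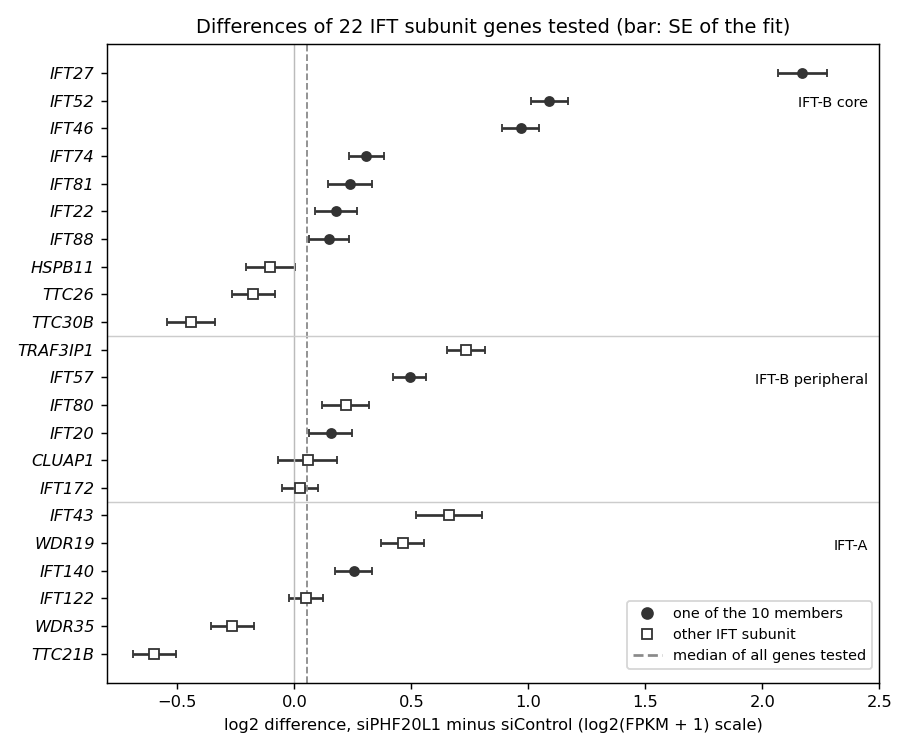
Log2 difference, siPHF20L1 minus siControl, on the log2(FPKM + 1) scale for the 22 IFT subunit genes tested, by complex, with bars for the SE of the fit. Filled circles are the 10 members and open squares the others, and the dashed line marks the median of all genes tested, 0.05; IFT27 lies at 2.17 and TTC21B at -0.60.

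Of the 5 kinesin-2 genes, which encode the motor toward the tip, 3 rose and none fell. The 3 include KIF17, which passed the filter only through the group where it was higher. Over all genes tested 34.0% rose and 24.7% fell, the shares to set beside this list and those below. KIF3C, an alternative motor subunit, had 9.85, 11.11 and 11.02 FPKM in siPHF20L1 libraries, against 3.49, 3.76 and 3.90 FPKM in siControl libraries (log2 difference 1.31, SE 0.08, limma adjusted p = 3.09e-06). KIF17, the homodimeric motor, had 1.13, 1.33 and 1.26 FPKM in siPHF20L1 libraries, against 0.47, 0.35 and 0.37 FPKM in siControl libraries (log2 difference 0.68, adjusted p = 0.000124). It reached the minimum only through the siPHF20L1 libraries, so nothing is read from its call. KIF3B, the subunit of the main ciliary motor, rose by 0.45 on the log2 scale (adjusted p = 0.000172). Its partner KIF3A had a log2 difference of -0.15 (adjusted p = 0.428), and the adaptor KIFAP3 one of -0.02 (adjusted p = 0.917).

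Of the 9 genes listed for dynein-2, the motor that returns the trains, 3 rose, 2 fell and 4 did not pass, among these the heavy chain DYNC2H1 (log2 difference -0.14, limma adjusted p = 0.278). None had a log2 difference of 0.5 or more in either direction. With the replicate block 5 rose and 2 fell, and under quantile normalization 3 rose and 3 fell. Without siPHF20L1 1, siPHF20L1 2, siControl 2 or siControl 3, 1 fell. The light chain genes DYNLRB1 and DYNLL2 rose and DYNLL1 fell. Their mean siControl levels were 190.6, 30.18 and 213.9 FPKM, against 1.62 FPKM for DYNC2H1, so the counts are not read as counts for dynein-2 alone. The other calls were WDR60, which rose, and TCTEX1D2, which fell, and they were lost under 8 and 6 of 15 settings.

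The BBSome and its chaperonins and regulators gave 6 that rose, 4 that fell and 4 that did not pass, of 14. Under quantile normalization 4 rose and 4 fell. Without siControl 2 or siControl 3, 3 rose; without siControl 1, 2 fell; and without siPHF20L1 2 or siPHF20L1 3, 1 fell. BBS1, the subunit that contacts ARL6, had 5.64, 5.49 and 5.85 FPKM in siPHF20L1 libraries, against 2.32, 2.34 and 2.40 FPKM in siControl libraries (log2 difference 0.99, SE 0.07, limma adjusted p = 6.87e-06). RABL2B, a GTPase that binds the IFT-B trains at the ciliary base, had 8.27, 7.79 and 7.97 FPKM in siPHF20L1 libraries, against 3.49, 3.50 and 3.77 FPKM in siControl libraries (log2 difference 0.97, SE 0.07, adjusted p = 7.75e-06). It has a near-identical paralog, so its share of fragments is uncertain. ARL6 and LZTFL1, which act with IFT27 in BBSome traffic in mice, fell by 0.26 (adjusted p = 0.0357) and 0.31 (adjusted p = 0.0174) on the log2 scale. Both calls depended on single libraries: ARL6 was lost under 6 and LZTFL1 under 3 of 15 settings, including without siPHF20L1 2 and without siPHF20L1 3 for both genes, and without siControl 1 for ARL6.

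At the transition zone, the gate at the ciliary base, 10 of 18 genes rose and 2 fell, against 34.0% higher and 24.7% lower over all genes tested. The median log2 difference over the 18 was 0.35. Without siPHF20L1 3, siControl 1 or siControl 2, 1 fell. TMEM216 had 9.04, 8.90 and 9.48 FPKM in siPHF20L1 libraries, against 3.43, 2.99 and 3.81 FPKM in siControl libraries (log2 difference 1.21, SE 0.08, limma adjusted p = 7.94e-06). MKS1, CC2D2A and TMEM67, other genes of Meckel syndrome, had log2 differences of 0.61, 0.53 and 0.53 (adjusted p = 0.000204, 0.00248 and 0.00401). The tectonic genes TCTN1, TCTN2 and TCTN3 rose too, with log2 differences between 0.34 and 0.48 (highest adjusted p = 0.00181). The 2 that fell were TMEM237, by 0.35 (limma adjusted p = 0.00262), and B9D2, by 0.32 (adjusted p = 0.0438). The call of B9D2 was lost under 8 of 15 settings.

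Of 15 genes of ciliary membrane targeting, 5 rose, 3 fell and 7 did not pass, and with the replicate block 5 rose and 7 fell. Under quantile normalization 4 rose and 5 fell, and without siPHF20L1 1 again 5 fell. Among carriers of lipid-modified proteins, UNC119B rose by 0.74 and PDE6D by 0.54 on the log2 scale (limma adjusted p = 3.54e-05 and 9.6e-05). The related carrier UNC119 fell by 0.53 (adjusted p = 0.000857).

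Of 17 genes of the mother centriole and of the start of cilium growth, 5 rose, 5 fell and 7 did not pass. ICK, a kinase that controls the turn-around of IFT trains at the tip, fell to 4.47, 4.03 and 4.22 FPKM in siPHF20L1 libraries, against 20.96, 16.16 and 16.48 FPKM in siControl libraries (log2 difference -1.84, SE 0.10, limma adjusted p = 2.52e-06). CEP97, which with CCP110 caps the mother centriole and holds back cilium growth, fell to 4.70, 4.13 and 4.18 FPKM in siPHF20L1 libraries, against 13.13, 10.23 and 9.77 FPKM in siControl libraries (log2 difference -1.17, SE 0.11, adjusted p = 3.77e-05). FBF1 and CEP164, genes of the distal appendages that anchor the mother centriole to the membrane, rose by 0.88 and 0.85 on the log2 scale (adjusted p = 5.37e-05 and 2.62e-05). CEP131, CEP83 and NEK8 rose too, with log2 differences of 0.64, 0.59 and 0.53 (highest limma adjusted p = 0.000758). KIAA0586, CCP110 and TTBK2 fell too, with log2 differences of -0.54, -0.50 and -0.48 (highest limma adjusted p = 0.0034). Genes of this list thus moved in both directions, and cilium growth was not tested.

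**Figure D4:**
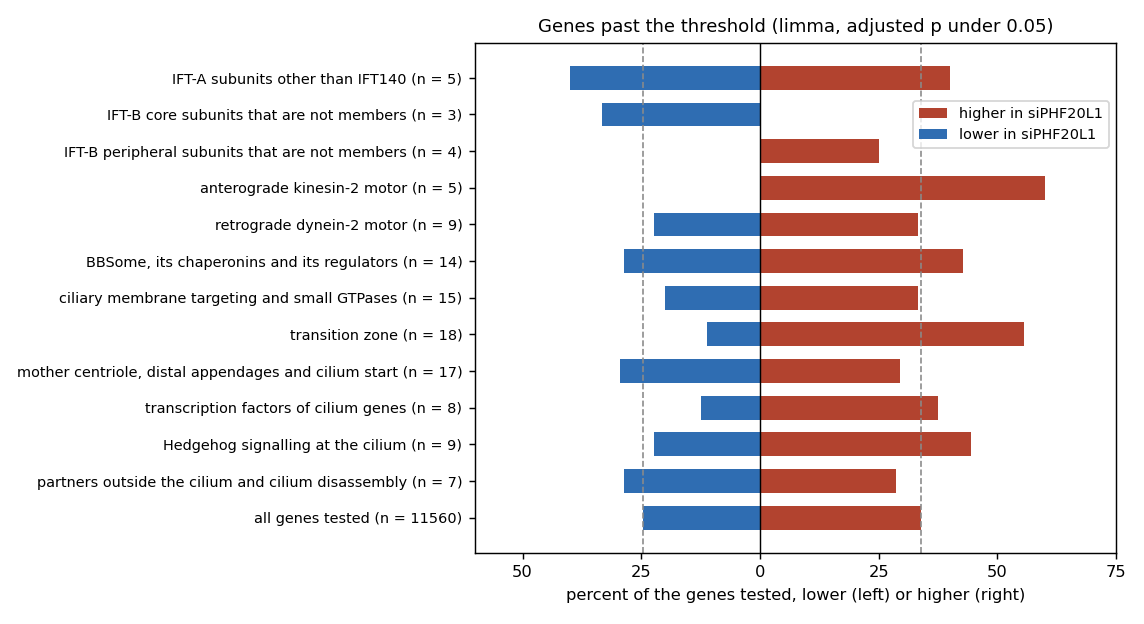
Percent of the tested genes of each cilium list that were lower (left, blue) or higher (right, red) in siPHF20L1 than in siControl libraries at an adjusted p under 0.05, with the number tested in brackets. The dashed lines mark the shares over all genes tested, 24.7% lower and 34.0% higher. Of 18 transition zone genes 10 were higher, and the lists of 3 to 5 genes move in large steps with each gene. KIF17 and TTC30B are counted, although each passed the filter only through the group where it was higher.

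Of 8 tested transcription factors of cilium genes 3 rose and 1 fell, none by 0.5 or more on the log2 scale. These counts moved with the setting: 1 rose and 2 fell under quantile normalization, 3 fell with the replicate block, 2 fell without siPHF20L1 1 and 1 rose without siControl 3. Among the RFX factors, RFX1 and RFX2 had log2 differences of -0.03 and -0.16 and did not pass (limma adjusted p = 0.737 and 0.0695), and RFX2 passed with the replicate block (adjusted p = 0.012), under median-ratio and quantile scaling and with the libraries numbered 2 and 3 alone. RFX5 rose by 0.19 (adjusted p = 0.0188), a call lost under 6 of 15 settings, among them without siPHF20L1 2, siControl 2 or siControl 3. RFX7 had a log2 difference of -0.20 (adjusted p = 0.185) and passed with the replicate block (adjusted p = 0.00231), with the libraries numbered 2 and 3 alone and without siPHF20L1 1. RFX3, too low to be tested, had 0.90, 0.86 and 1.16 FPKM in siPHF20L1 libraries, against 0.42, 0.48 and 0.41 FPKM in siControl libraries. FOXJ1, the factor of motile cilia, was listed at 0.02 FPKM in siPHF20L1 1 and at 0 in the other 5 libraries.

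For Hedgehog signalling, which passes through the cilium in vertebrates, 4 of 9 tested genes rose, 2 fell and 3 did not pass. Under quantile normalization, without any 1 siControl library, or without siPHF20L1 2 or siPHF20L1 3, 3 rose, and with the replicate block 5 rose. Without siPHF20L1 3 or without siControl 2, 1 fell. SUFU rose by 0.16 on the log2 scale (limma adjusted p = 0.0455), a call lost under 10 of 15 settings. PTCH1, the Hedgehog receptor, fell to 2.67, 2.42 and 2.58 FPKM in siPHF20L1 libraries, against 5.08, 4.35 and 4.45 FPKM in siControl libraries (log2 difference -0.66, SE 0.08, limma adjusted p = 0.000155). GLI3, the transcription factor processed at the cilium into a repressor, had 9.38, 8.54 and 8.38 FPKM in siPHF20L1 libraries, against 4.52, 3.99 and 3.93 FPKM in siControl libraries (log2 difference 0.93, SE 0.08, adjusted p = 2.2e-05). GPR161, a ciliary receptor that holds the pathway back, rose by 0.54 on the log2 scale (adjusted p = 0.000209). The transducer SMO reached at most 0.04 FPKM and the target gene GLI1 at most 0.33 FPKM in any library, and neither was tested.

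Of 7 partners outside the cilium and genes of cilium disassembly, 2 rose, 2 fell and 3 did not pass, and with the replicate block 4 rose and 2 fell. Under quantile normalization 1 rose and 2 fell. HIP1, the partner of IFT57, rose by 0.53 on the log2 scale (limma adjusted p = 0.00032). TRIP11, the Golgi anchor of IFT20, rose by 0.29 (adjusted p = 0.0386), a call lost under 9 of 15 settings, among them without siPHF20L1 1 or 3 and without siControl 2 or 3. AURKA, the mitotic kinase that triggers cilium disassembly, fell by 0.50 (adjusted p = 4.77e-05). On the same list, KIF2A had a log2 difference of -0.31 (limma adjusted p = 0.00496). HDAC6 had one of 0.10 and did not pass (adjusted p = 0.215), except with the replicate block (adjusted p = 0.0493). Over all the cilium lists, 44 of 114 tested genes rose and 24 fell (36 and 30 under quantile normalization), with a median log2 difference of 0.11, against 34.0% and 24.7% and a median of 0.05 over all genes tested. The 44 include KIF17 and the 24 include TTC30B, each of which passed the filter only through the group where it was higher.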

How the data were processed

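RNA of MDA-MB-231 cells was sequenced in 3 siPHF20L1 and 3 siControl libraries, from poly-A RNA with a stranded kit, per the labels' protocols. Per the submitters' processing notes, the build was GRCh37 and the tools included TopHat2 2.1.1, HTSeq 0.6.0 and Bowtie 0.12.2, with no role or order given. The values are FPKM as deposited, 1 per gene and library, per the file headers. How the authors computed them, with which annotation, and whether strand was used was not given in the sources used here. Of 17452 Entrez identifiers, 17419 were found in the RefSeq gene table, and 26 symbols that had become dates were restored through the identifier. Depth was estimated from the steps of low FPKM, and whole multiples of that step cannot be told apart from it.

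Log2(FPKM + 1) was fitted with limma 3.58.1 (R 4.3.3), with an intensity trend and no block, siPHF20L1 minus siControl, for the 11560 genes with at least 1 FPKM in at least 3 libraries. P-values were two-sided and adjusted by Benjamini-Hochberg over all genes tested, with a threshold of 0.05, and the fit was tested on simulated data. The members and the gene lists were chosen with earlier results of these data known. The text names all members, all other IFT subunits, from each list the genes past the threshold with an absolute log2 difference of at least 0.5 (at most 4, the largest), and the 5 genes most like IFT27; no member was lower, so no second likeness search was made. KIF3A, KIF3B, KIFAP3, DYNC2H1, ARL6, LZTFL1, TCTN1, TCTN2, TCTN3, RFX1, RFX2, RFX3, RFX5, RFX7, FOXJ1, MCIDAS, SMO, GLI1, TRIP11 and AURKA were named beyond this rule, for their roles, after their values were seen. So were WDR60, TCTEX1D2, DYNLL1, DYNLL2, DYNLRB1, TMEM237, B9D2, SUFU, CEP131, CEP83, NEK8, KIAA0586, CCP110, TTBK2, KIF2A and HDAC6, to account for the counts of their lists. Same-numbered libraries deviated together, with correlations of 0.73, 0.44 and 0.42 for the numbers 1, 2 and 3. These correlations, and no label, pair the libraries numbered 1. For the numbers 2 and 3 the pairing is unresolved. The library siPHF20L1 2 gave 0.49 with siControl 3, above its 0.44 with siControl 2, and siPHF20L1 3 gave 0.31 with siControl 2. The replicate block takes the numbers as given, so calls made only with it rest on a pairing not shown for the numbers 2 and 3. Sequences are RefSeq (GRCh38.p14), searched by letters, and overlaps of exons come from GENCODE release 29.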

Additional observations from a re-analysis of the deposited data

How the results depend on the processing

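Under 15 alternatives (another pseudocount, no filter, other scalings, no trend, the replicate block, libraries numbered 2 and 3 alone or averaged, and each library left out) no difference of the members or of 46 other genes followed changed sign where it was called. The member count past the threshold was 6, between 4 and 9 over the alternatives, and the list count was 68, between 48 and 87. The replicate block gave 9 members, 87 list calls and 8792 genes over the whole table, against 6777 without it; it changed the calls of HSPB11, TTC26 and IFT80 among the other IFT subunits. Over these settings and the libraries numbered 1 alone, the log2 difference of IFT27 lay between 1.97 and 2.66, and of IFT52 between 1.02 and 1.21. That of IFT46 lay between 0.89 and 1.09, and of IFT88 between 0.01 and 0.22. The lowest value of IFT27 and the highest of IFT88 came from the libraries numbered 1 alone. The scalings moved the median gene from 0.05 to between -0.02 and 0.07. Of the 46 other genes followed, 5 lost a call in some setting (WDR35, ARL6, LZTFL1, RFX5 and TRIP11) and 6 gained one (HSPB11, TTC26, IFT80, RFX2, RFX7 and DYNC2H1). The 46 do not include MCIDAS, WDR60, TCTEX1D2, DYNLL1, DYNLL2, DYNLRB1, TMEM237, B9D2, SUFU, CEP131, CEP83, NEK8, KIAA0586, CCP110, TTBK2, KIF2A and HDAC6. Depth limits IFT27 in siControl libraries, at 25 to 40 fragments. Transcript levels say nothing of the presence or length of cilia, and 1 cell line was analysed.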
